A study of Mus musculus with 11 samples.

Results

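The genes described are 10 members of the MHC class I antigen presentation pathway, taken by symbol from the count files: B2m, H2-K1, H2-D1, H2-T23, Tap1, Tap2, Tapbp, Nlrc5, Erap1 and Pdia3. All 10 symbols were present among the 23284 genes listed, and all 10 passed the filter on low counts, which left 15237 genes. They were measured by poly(A) RNA-seq in 11 mouse small cell lung tumors, a neuroendocrine carcinoma. By its genotype label, every tumor in both groups had Rb and p53 alleles together with TRE-MYCN, a MYCN transgene driven by doxycycline, and LSL-RTTA, the transactivator behind a lox-stop-lox cassette. The MYCN ON group comprised 7 tumors kept on doxycycline, and the MYCN OFF group 4 tumors sampled 7 days after doxycycline was taken out of the feed. Age, sex, strain, Cre driver and the number of mice are not in the labels, so the p-values cover only differences among these tumors, which may in part be technical. No group received doxycycline without the transgene, so MYCN and the drug cannot be told apart.

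MHC class I molecules display short peptides from inside the cell to CD8 T cells. A heavy chain, encoded in mouse by the H2 genes, pairs with the light chain beta-2 microglobulin and is loaded with peptide in the endoplasmic reticulum by a complex built around the TAP transporter. NLRC5 is the transactivator that acts at class I promoters together with RFX and NF-Y factors, and interferon signaling, in part through IRF1, raises the same genes. Neuroendocrine small cell lung cancer is known for low class I expression, while lung epithelium, endothelium and leukocytes express these genes well.

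Promoter sequences were read for 8 of the 10 members from RefSeq (build GRCm38.p6, a later build than the mm9 used for counting), as the 250 bases before each annotated start. H2-K1 has more than 1 annotated start, and the first is shown. The 6 windows below are shown because they set the classical heavy chains beside the light chain, an unconventional heavy chain, a transporter gene and Pdia3, whose level was not called different. Capitals mark matches, on either strand, to the kappa B letters GGGATTCCC, the interferon response (ISRE) core GAAANNGAA, the X2 core TGACG and the Y box CCAAT. No matches overlapped in these windows. The windows are H2-K1 at chr17:34000348-34000597 (minus strand), H2-D1 at chr17:35262844-35263093 (plus), B2m at chr2:122147437-122147686 (plus), H2-T23 at chr17:36032702-36032951 (minus), Tap1 at chr17:34187306-34187555 (plus) and Pdia3 at chr2:121413652-121413901 (plus), each read 5′ to 3′ toward the start site.
H2-K1: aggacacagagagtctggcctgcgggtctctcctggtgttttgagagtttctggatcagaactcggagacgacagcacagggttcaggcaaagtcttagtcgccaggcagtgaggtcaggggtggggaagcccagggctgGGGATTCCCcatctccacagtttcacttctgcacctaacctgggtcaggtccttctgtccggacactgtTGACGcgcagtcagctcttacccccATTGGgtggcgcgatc
H2-D1: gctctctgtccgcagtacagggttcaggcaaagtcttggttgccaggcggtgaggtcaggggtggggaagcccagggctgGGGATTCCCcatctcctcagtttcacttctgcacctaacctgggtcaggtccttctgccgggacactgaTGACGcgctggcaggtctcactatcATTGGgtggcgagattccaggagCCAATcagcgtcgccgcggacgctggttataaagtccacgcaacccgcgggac
B2m: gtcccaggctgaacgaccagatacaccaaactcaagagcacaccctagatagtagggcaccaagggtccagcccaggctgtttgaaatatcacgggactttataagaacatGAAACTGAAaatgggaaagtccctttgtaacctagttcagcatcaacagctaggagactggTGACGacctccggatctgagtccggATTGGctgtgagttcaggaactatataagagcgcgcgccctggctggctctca
H2-T23: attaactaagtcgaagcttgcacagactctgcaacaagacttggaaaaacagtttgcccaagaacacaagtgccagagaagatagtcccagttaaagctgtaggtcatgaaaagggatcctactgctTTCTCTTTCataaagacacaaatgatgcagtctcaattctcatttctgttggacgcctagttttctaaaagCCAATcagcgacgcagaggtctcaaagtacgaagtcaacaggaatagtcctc
Tap1: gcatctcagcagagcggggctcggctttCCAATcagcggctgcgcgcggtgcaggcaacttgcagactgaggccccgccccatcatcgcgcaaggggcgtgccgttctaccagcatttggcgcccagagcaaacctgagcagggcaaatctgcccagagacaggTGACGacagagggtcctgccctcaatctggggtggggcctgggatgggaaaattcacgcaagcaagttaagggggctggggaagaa
Pdia3: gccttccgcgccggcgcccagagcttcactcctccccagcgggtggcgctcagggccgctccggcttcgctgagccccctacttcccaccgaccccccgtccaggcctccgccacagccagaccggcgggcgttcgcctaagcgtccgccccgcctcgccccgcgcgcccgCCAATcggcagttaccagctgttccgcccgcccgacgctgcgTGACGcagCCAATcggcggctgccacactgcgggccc

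Aligned without gaps at the kappa B letters, 166 of 190 bases (87.4%) of the H2-K1 and H2-D1 windows were identical. In both windows the X2 core lay 69 bases after the start of the kappa B letters and the first Y box 25 bases further. The kappa B letters occurred in 99 of 32851 RefSeq windows of this length (0.301%), and among the members in H2-K1 and H2-D1. The ISRE core occurred in 7.13% of all windows and in 3 members, B2m, H2-T23 and Erap1. The X2 core was found in 17.8% of all windows and in 5 of the 8 members, and the Y box in 33.8% and in 7 of 8. The E-box CACGTG, a binding site of the MYC family, was in 6.02% of all windows and in that of Erap1. These are matches of letters in fixed windows, not measured binding.

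Each tumor had between 8951733 and 13123838 reads counted over genes. Levels are given as CPM, a gene's count scaled to the library's TMM-adjusted total. Mycn ran from 36.5 to 171 CPM in MYCN ON and from 5.63 to 15.7 CPM in MYCN OFF, without overlap (edgeR log2 fold change 3.06 ± 0.47 SE, adjusted p = 0.00139). The tumors stood apart in lung content. Sftpc, which encodes a surfactant protein of the alveolar epithelium, ran from 450 to 9505 CPM in MYCN ON tumors 3 and 5 and MYCN OFF tumors 1, 3 and 4, and from 0.443 to 5.86 CPM in the other 5 MYCN ON tumors and in MYCN OFF tumor 2. The first set is called lung-containing here, and the second lung-poor. All 15 lung epithelium markers passed the filter, and 4 were lower in MYCN ON, beside 13.4% of all genes tested. Among these markers Sftpd had no read in MYCN ON tumors 1 and 2 and MYCN OFF tumor 2. Their summed level was 87.1 to 3679 CPM in MYCN ON and 207 to 35276 CPM in MYCN OFF. The 19 leukocyte markers found summed to 96.4 to 259 CPM in MYCN ON and 185 to 1010 CPM in MYCN OFF. Of the 16 tested, 9 were lower in MYCN ON, beside 13.4% of all genes tested. The leukocyte score, the mean log2 CPM of the tested markers, was lower in MYCN ON by -1.71 on the log2 scale (n = 7 and 4, two-sided exact permutation p = 0.0182, or 0.109 adjusted over 6 marker lists), and without MYCN OFF tumor 1 by -1.19 (exact permutation p = 0.0583). The lung score differed by -4.24 (exact permutation p = 0.0606, adjusted 0.133). It differed by -5.91 without MYCN OFF tumor 2 (exact permutation p = 0.00833, the smallest possible there) or -5.01 without MYCN ON tumor 5 (exact permutation p = 0.019). No other left-out tumor gave a p below 0.05, and these p-values are not adjusted. The tumors left out are the lung-poor MYCN OFF tumor and the MYCN ON tumor with the highest lung score, so leaving either out widens the difference by itself. MYCN OFF tumor 2, poor in lung markers, had the highest skeletal muscle marker sum, 462 CPM against 5.26 to 109 CPM in MYCN ON. The neuroendocrine markers, which check the tumor label, summed to at least 1518 CPM in every tumor.

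Of the 10 members, 8 were lower in MYCN ON than in MYCN OFF and none was higher. At the same threshold, an edgeR adjusted p below 0.05, 13.4% of all tested genes were lower and 16% higher. The median log2 fold change of the members was -2.46, beside 0.0023 over all genes tested. The members that fell were B2m, the heavy chain genes H2-K1, H2-D1 and H2-T23, the transporter genes Tap1 and Tap2, the tapasin gene Tapbp and the transactivator Nlrc5. Erap1 and Pdia3 were not called. In 4 members, H2-T23, Tap2, Tapbp and Nlrc5, every MYCN ON tumor lay below every MYCN OFF tumor, which 5.41% of all tested genes also showed. No member was higher at an unadjusted p below 0.05, and DESeq2 and limma voom called none higher either (17.5% and 16.5% of all genes were higher by those tools). In bulk tumors, fewer cells of a type and less RNA per cell cannot be told apart.

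**Figure D1:**
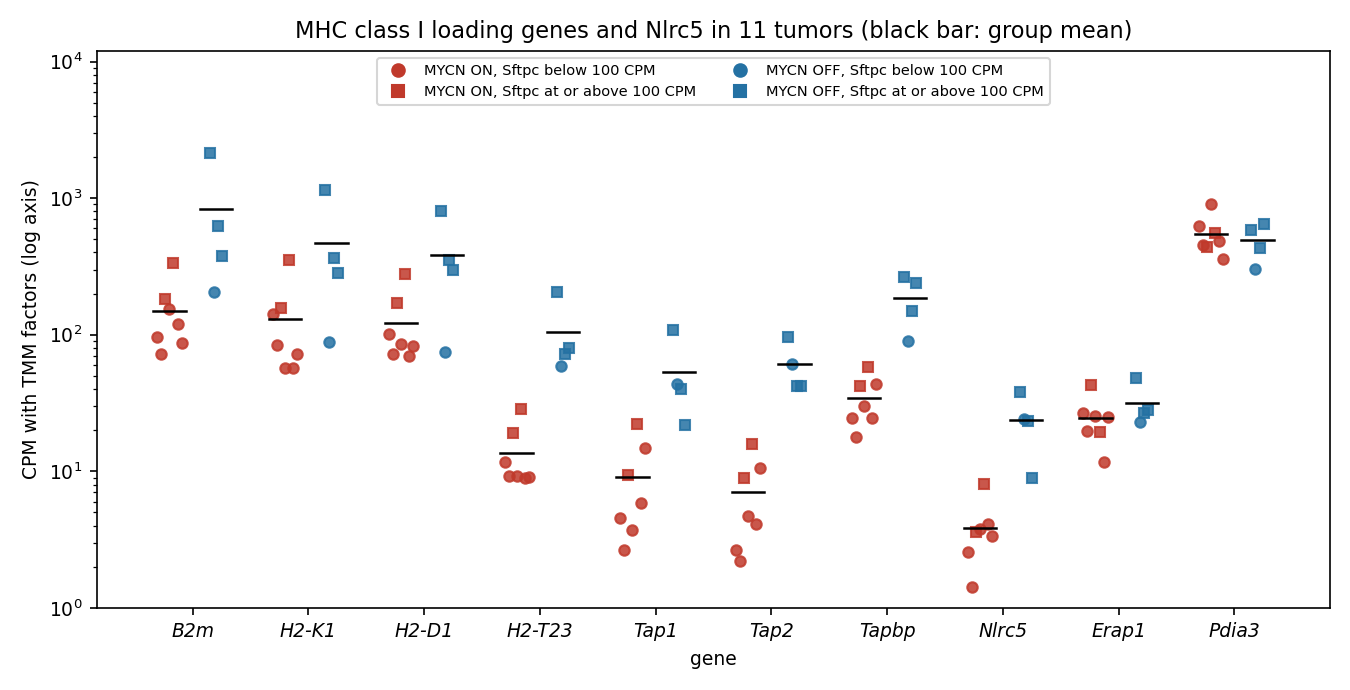
CPM (log axis) of the 10 members in 7 MYCN ON tumors (red) and 4 MYCN OFF tumors (blue), with squares for tumors at or above 100 CPM of Sftpc and black bars for group means. The red and blue points are separate for H2-T23, Tap2, Tapbp and Nlrc5, while the blue circle, MYCN OFF tumor 2, lies among the red points for H2-K1 and H2-D1.

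Nlrc5 was the least abundant member. It was at 1.42 CPM in the lowest MYCN ON tumor, 3.61 at the median and 8.12 in the highest, which is 16 to 104 reads. The MYCN OFF tumors held 38.0, 24.1, 23.4 and 8.91 CPM (tumors 1 to 4). MYCN OFF tumor 4 was only just above the highest MYCN ON tumor, tumor 5. MYCN OFF exceeded MYCN ON 6.12-fold (edgeR log2 fold change -2.61 ± 0.46 SE, adjusted p = 0.00242). With each tumor left out in turn, the log2 fold change stayed between -2.92 and -2.28 and the adjusted p at or below 0.00874.

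Tap1 and Tap2 encode the subunits of the transporter that pumps cytosolic peptides into the endoplasmic reticulum. Tap2 ran from 2.21 through a median of 4.67 to 15.8 CPM in MYCN ON, against 96.9, 60.9, 42.4 and 42.1 CPM in MYCN OFF. The lowest MYCN OFF tumor was well above the highest MYCN ON tumor, and the 8.61-fold difference was the largest of the 10 members (edgeR log2 fold change -3.11 ± 0.51 SE, adjusted p = 0.00172). Tap1, whose promoter above holds X2 and Y box letters, ran from 2.66 through 5.89 to 22.1 CPM in MYCN ON. Its MYCN OFF values were 108, 43.3, 39.9 and 21.9 CPM. The groups overlapped in 1 pair of tumors, MYCN OFF tumor 4 and MYCN ON tumor 5, and the fold difference was 5.89 (edgeR log2 fold change -2.56 ± 0.58 SE, adjusted p = 0.00856). Without MYCN OFF tumor 1 it shrank to -1.95 (adjusted p = 0.0378).

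Tapbp encodes tapasin, which bridges TAP and the empty heavy chain. Its MYCN ON tumors held 17.7 to 57.8 CPM with a median of 30.2, and the MYCN OFF tumors 262, 89.5, 148 and 239 CPM. The groups were separate, with a 5.36-fold difference (edgeR log2 fold change -2.42 ± 0.35 SE, adjusted p = 0.00107), the smallest p of the members. MYCN OFF tumor 2 was the lowest of its group here.

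H2-T23 encodes Qa-1, an unconventional heavy chain that presents leader peptides to NKG2 receptors of NK cells. It was at 8.88 to 28.8 CPM in MYCN ON with a median of 9.26, and at 205, 59.0, 71.8 and 79.7 CPM in MYCN OFF. The 5 MYCN ON tumors with Sftpc below 100 CPM were nearly level at 8.88 to 11.7 CPM, and tumors 3 and 5 were above them. This was a 7.57-fold difference (edgeR log2 fold change -2.92 ± 0.42 SE, adjusted p = 0.0011).

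The classical heavy chains H2-K1 and H2-D1 and the light chain B2m, which present peptides to CD8 T cells, fell on average but overlapped between the groups. H2-K1 was at 56.8 to 350 CPM in MYCN ON with a median of 84.4, and at 1148, 88.0, 364 and 281 CPM in MYCN OFF. H2-D1 was at 70.0 to 276 CPM with a median of 86.0 in MYCN ON, and at 803, 74.5, 351 and 299 CPM in MYCN OFF. For both, MYCN OFF tumor 2 lay inside the range of the 5 MYCN ON tumors poor in lung markers, and the lung-containing MYCN ON tumor 5 was close to MYCN OFF tumors 3 and 4.

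By edgeR, H2-K1 fell by 1.84 ± 0.64 (SE) on the log2 scale (adjusted p = 0.0471) and H2-D1 fell by 1.64 ± 0.53 (adjusted p = 0.038). Leaving out any of 9 of the 11 tumors for H2-K1, and any of 8 for H2-D1, moved the adjusted p above 0.05. Without MYCN OFF tumor 1, the tumor richest in lung and leukocyte markers, the log2 fold changes were -0.89 (adjusted p = 0.301) and -0.98 (adjusted p = 0.199), and 6.59% of all genes were called lower. Limma voom called 6 members lower (12.1% of all genes) and neither H2-K1 nor H2-D1. DESeq2 called all 8 of the members named above lower (19.2% of all genes). Reads that align to several places were not counted, and near-identical heavy chain genes can lose reads in this way. Such reads made up 13.8% to 20.9% of a MYCN ON library and 9.15% to 11.9% of a MYCN OFF library, and their part in the H2-K1 and H2-D1 values was not tested. The MHC haplotype of the mice is not in the labels, and reads of H2 alleles unlike the reference may align less well, which was not tested either.

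B2m, the light chain shared by all class I molecules, ran from 71.9 through a median of 120 to 333 CPM in MYCN ON. In MYCN OFF it was at 2137, 207, 627 and 378 CPM, so tumor 2 was the only one of its group below the highest MYCN ON tumor, tumor 5. Its edgeR log2 fold change of -2.49 ± 0.58 (SE) was called (adjusted p = 0.0094), and the call held with each tumor left out. Without MYCN OFF tumor 1 the log2 fold change was -1.43 (adjusted p = 0.0486).

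Erap1, the aminopeptidase that trims peptides in the endoplasmic reticulum, was at 11.8 to 42.6 CPM in MYCN ON with a median of 25.0, and at 48.4, 23.1, 26.8 and 28.3 CPM in MYCN OFF. The groups overlapped, and edgeR did not call the log2 fold change of -0.38 ± 0.32 SE (adjusted p = 0.388). Pdia3, the disulfide isomerase ERp57 that folds many glycoproteins and pairs with tapasin, was at 357 to 903 CPM with a median of 487 in MYCN ON. Its MYCN OFF values were 589, 300, 432 and 650 CPM, and its log2 fold change of 0.14 ± 0.27 SE was not called (adjusted p = 0.716). The sign for Pdia3 turned when upper quartile factors (-0.08) or library totals (-0.18) set the scaling. Per kilobase of annotated exon, Pdia3 (197 ± 65.0 CPM per kb) and B2m (173 ± 105, SD, n = 7) were the most abundant members in MYCN ON and differed by less than their spread. In MYCN OFF, B2m was the most abundant at 973 ± 1027 CPM per kb, with a spread larger than its mean (SD, n = 4). Nlrc5 was the least abundant per kilobase in both groups, at 0.474 ± 0.257 and 2.91 ± 1.46 CPM per kb.

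The members differed in how they moved with the marker scores. With the lung score as a covariate in the edgeR fit, 5 members stayed lower in MYCN ON: H2-T23, Tap1, Tap2, Tapbp and Nlrc5. In that fit 3.34% of all genes were lower. The log2 fold change of H2-K1 went from -1.84 to -0.14 (adjusted p = 0.886), that of H2-D1 from -1.64 to -0.07 (adjusted p = 0.915) and that of B2m from -2.49 to -0.97 (adjusted p = 0.195). Nlrc5 remained at -2.22 (adjusted p = 0.0145), Tap2 at -2.61 (adjusted p = 0.00759) and H2-T23 at -2.07 (adjusted p = 0.00391).

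With the leukocyte score in its place, H2-T23, Tap2, Tapbp and Nlrc5 were called lower, beside 3.25% of all genes. Tap1 was at -1.66 and no longer called (adjusted p = 0.152), and B2m at -0.23 (adjusted p = 0.623). H2-K1 (0.38, adjusted p = 0.724) and H2-D1 (0.31, adjusted p = 0.679) took the opposite sign without a call. With both scores together H2-T23, Tap2 and Tapbp were called, beside 3.73% of all genes, while Nlrc5 (-1.94, adjusted p = 0.0504) and Tap1 (-2.22, adjusted p = 0.058) were just outside the threshold. With an endothelial marker score, 6 members were called, the 5 of the lung-adjusted fit and B2m (-0.90, adjusted p = 0.0395), beside 5.77% of all genes. Scores that differ between the groups take up part of any difference between them, and whether the scores or doxycycline status carried it was not tested.

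**Figure D2:**
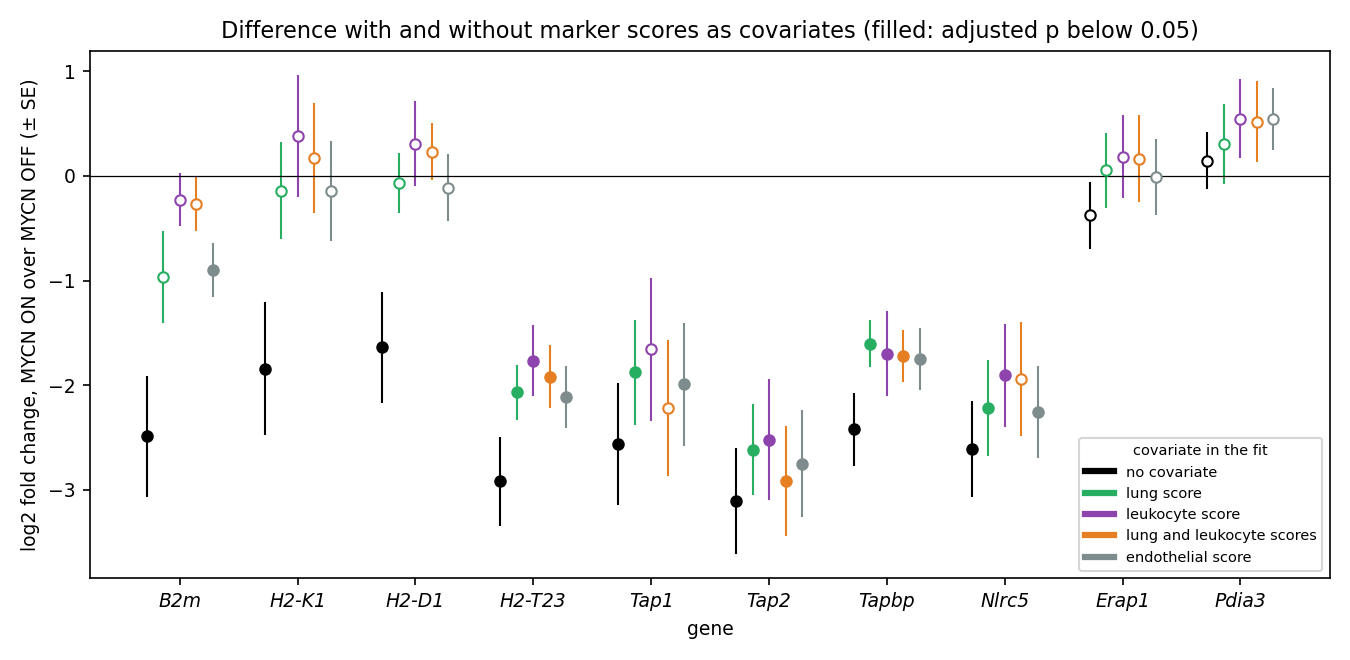
Log2 fold change of each member, MYCN ON over MYCN OFF, with its standard error, in edgeR fits without a covariate (black) and with marker scores as covariates (colors). Filled points have an adjusted p below 0.05. With a score in the fit H2-K1 and H2-D1 lie between -0.14 and 0.38, while H2-T23, Tap2 and Tapbp stay at or below -1.60 and filled.

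MYCN OFF tumor 2 can be set beside the lung-poor MYCN ON tumors directly. Its lung marker sum of 207 CPM was near the 87.1 to 178 CPM seen in 5 MYCN ON tumors, and its leukocyte marker sum of 185 CPM lay within the MYCN ON range. Tap2 in this tumor was 5.73-fold above the highest of those 5 tumors, Nlrc5 5.90-fold, H2-T23 5.03-fold, Tap1 2.92-fold and Tapbp 2.05-fold. B2m was 1.35-fold above. These are 6 of the 10 members, and 24.6% of all tested genes were also above all 5 MYCN ON tumors in this tumor. H2-K1, H2-D1 and Erap1 lay within their range, and Pdia3 lay below it. No other MYCN OFF tumor was poor in lung markers and this one held muscle RNA, so these are the values of 1 tumor with no replicate.

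Among the 5 lung-containing tumors, both MYCN ON tumors lay below all 3 MYCN OFF tumors for 6 members, B2m, H2-D1, H2-T23, Tap2, Tapbp and Nlrc5, as 21.6% of all tested genes did. Fits restricted by Sftpc had little power. edgeR called 0 members and 0% of all genes in either subset. Among the lung-containing tumors (2 against 3), 6 members were lower at an unadjusted p below 0.05, beside 11.1% of all genes. These were B2m, H2-T23, Tap1, Tap2, Tapbp and Nlrc5, with Tap1 in place of H2-D1 (edgeR unadjusted p = 0.068). The lung-poor fit has 1 MYCN OFF tumor, whose spread is taken from the others, so its p-values are not given. The log2 fold changes there were -3.00 for Nlrc5, -3.67 for Tap2 and 0.12 for H2-D1.

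**Figure D3:**
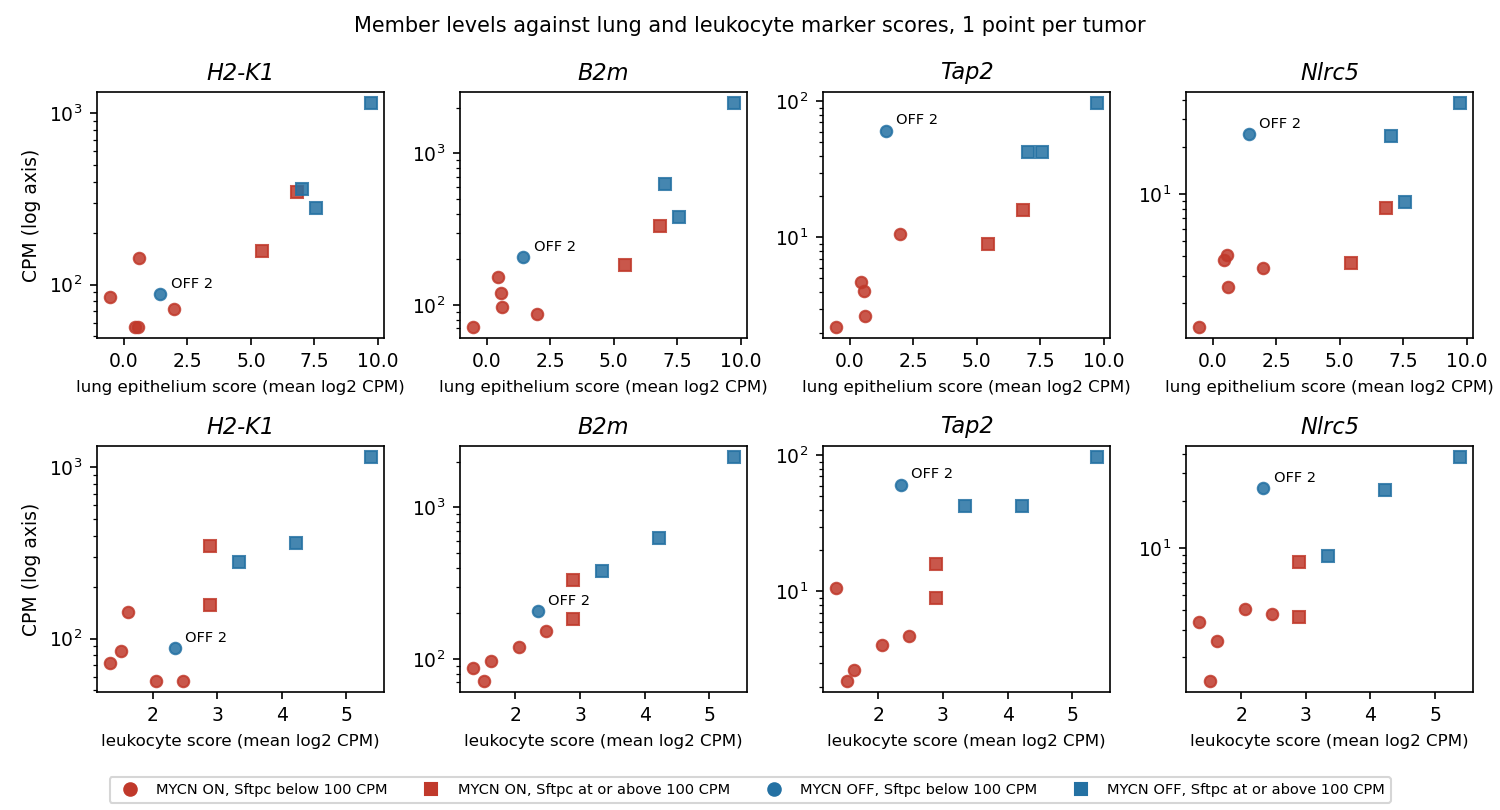
CPM (log axis) of H2-K1, B2m, Tap2 and Nlrc5 against the lung epithelium score (top) and the leukocyte score (bottom), 1 point per tumor, red for MYCN ON and blue for MYCN OFF. For Tap2 and Nlrc5 MYCN OFF tumor 2 sits above all MYCN ON tumors at a low score, and for H2-K1 it sits among them.

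Within MYCN ON alone, the lung score split the tumors into separate clusters (5.45 and 6.82 in tumors 3 and 5, -0.54 to 1.98 in the others), so no correlation with it is given. B2m followed the leukocyte score over the 7 tumors (Pearson r = 0.919, two-sided exact permutation p = 0.00159, adjusted over 10 members 0.0159). Spearman's rho was 0.929 (exact permutation p = 0.00675, adjusted 0.0675). Without tumors 3 and 5, the farthest from the median score, r was 0.932. The other 9 members did not pass. The next highest r were 0.755 for H2-D1 (exact permutation p = 0.0415, adjusted 0.164), 0.747 for H2-T23 (exact permutation p = 0.0492, adjusted 0.164) and 0.699 for Nlrc5 (exact permutation p = 0.0665, adjusted 0.166). Without tumors 3 and 5 the r of H2-D1 was -0.06, that of H2-T23 -0.21 and that of Nlrc5 0.55.

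Genes with profiles most like that of Nlrc5 over the 11 tumors were found among 13718 named genes by Pearson correlation of log2 CPM. They were Irf7 (r = 0.975), an interferon regulatory factor, H2-T22 (0.97), an unconventional heavy chain, Psmb8 (0.962), an immunoproteasome subunit, Irgm2 (0.961), an interferon-inducible GTPase, and Unc45b (0.96), a myosin chaperone of striated muscle. The closest to B2m were Mndal (0.989), Slfn2 (0.985), Pycard (0.985), Thbd (0.985) and Myo1g (0.984). Whether these genes share a cell type or a response to interferon was not tested. Both sets were called lower in MYCN ON, so the group difference is part of each correlation, and all tumors also share their differences in tissue content.

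The other heavy chain and class I-like genes were mostly lower as well. Of 24 listed symbols 22 were found and 15 tested. In MYCN ON 11 were lower (13.4% of all genes were) and 0 higher (16% of all genes were). By DESeq2 and limma voom 0 were higher too (17.5% and 16.5% of all genes were). At an unadjusted p below 0.05 by edgeR, 0 were higher. The median log2 fold change of the 15 tested genes was -2.24. H2-M2 averaged 2.55 ± 1.75 CPM in the MYCN ON tumors and 40.7 ± 32.7 CPM in the MYCN OFF tumors (edgeR log2 fold change -3.99, adjusted p = 0.00195, and -3.31 without MYCN OFF tumor 1). H2-Q4 averaged 19.0 ± 17.8 and 143 ± 91.8 CPM (log2 fold change -2.90, adjusted p = 0.00648). MYCN OFF exceeded MYCN ON 5.48-fold for H2-M3, which presents formylated bacterial peptides, and 6.62-fold for H2-T22. H2-Q1 was at most 0.937 CPM in MYCN ON, with no read in 3 tumors, and at 2.63 to 6.80 CPM in MYCN OFF. H2-Q9 and H2-T9 had no counted read in any tumor, which allows up to 0.348 CPM of uniquely aligned reads. Reads that align to several places were not counted, so this does not limit the true level of either gene. The H2-Q and H2-T genes are close copies of each other, and their counts are uncertain for that reason. With the leukocyte score as a covariate edgeR called 0 of the 15 tested genes lower (3.25% of all genes), with 7 lower at an unadjusted p below 0.05. With the lung score it called 5 lower (3.34% of all genes).

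Of 14 peptide supply and folding genes tested, 4 were lower in MYCN ON (13.4% of all genes were), 2 higher (16% of all genes were) and 8 not called, with a median log2 fold change of -0.02. The lower genes were the immunoproteasome subunits Psmb8, Psmb9 and Psmb10, which replace catalytic subunits under interferon, and Tapbpl, the tapasin-like peptide editor TAPBPR. Psmb8 averaged 7.64 ± 4.71 CPM in the MYCN ON tumors and 61.6 ± 36.8 CPM in the MYCN OFF tumors (edgeR log2 fold change -3.01, adjusted p = 0.00164), and the fold difference of Psmb9 was 8.83 (log2 fold change -3.14, and -3.75 without MYCN ON tumor 5). Psmb10 lost its call without MYCN OFF tumor 1 (adjusted p = 0.0542) and with the lung, leukocyte or endothelial score. Tapbpl averaged 10.7 ± 3.16 and 28.5 ± 7.56 CPM, and lost its call with the lung score (adjusted p = 0.0678) and with the leukocyte score (adjusted p = 0.0858). Psmb9 lost it with the leukocyte score (adjusted p = 0.0627). The higher genes were Psme3, the nuclear proteasome activator PA28 gamma (2.19-fold, adjusted p = 0.00329), and the lectin chaperone Canx, calnexin (1.78-fold, adjusted p = 0.0224). Canx was not called without MYCN OFF tumor 3 or 4, with upper quartile or library total scaling, or with any of the marker scores as a covariate, and Psme3 was not called with the leukocyte score. Calr, calreticulin of the loading complex, was not called (edgeR log2 fold change 0.04 ± 0.29 SE, adjusted p = 0.921), and its sign turned with the scaling (-0.18 by upper quartile factors and -0.28 by library totals).

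Among 20 regulators of class I genes, 5 were lower and 4 higher in MYCN ON, beside 13.4% and 16% of all genes, with a median log2 fold change of -0.29. Irf1, the interferon-induced activator of class I promoters, averaged 19.5 ± 6.94 CPM in the MYCN ON tumors and 76.0 ± 16.1 CPM in the MYCN OFF tumors (edgeR log2 fold change -1.96 ± 0.27 SE, adjusted p = 8.47e-04). The groups did not overlap for Irf1, with MYCN OFF tumor 2 at 64.6 CPM, and it kept its call with each of the marker scores as a covariate. The fold difference of Irf2 was 1.82, and it lost its call with the lung or the leukocyte score. Nfkb1 and Rela were also lower, and are named after their values were seen. Suz12, a subunit of the Polycomb repressor PRC2, was 2.06-fold higher in MYCN ON (adjusted p = 0.0112), and Creb1, which binds CRE sites, 1.74-fold (adjusted p = 0.0138). Suz12 and Creb1 lost their calls with the lung score and with the leukocyte score as a covariate, and Creb1 also with library total scaling. Rfx5, the DNA-binding RFX subunit, was not called (edgeR log2 fold change -0.63 ± 0.26 SE, adjusted p = 0.091). DESeq2 called it lower (adjusted p = 0.0374). So did edgeR with upper quartile or library total scaling, but not with RLE factors (adjusted p = 0.0565). It was also called lower with the leukocyte or endothelial score, and with the lung and leukocyte scores together (edgeR log2 fold change -1.29, adjusted p = 0.00968). Leaving out MYCN OFF tumor 1 or MYCN ON tumor 7 gave a call of Rfx5 too. The counts for this list depended on the scaling. By library totals 10 were lower and 1 higher, beside 22% and 8.64% of all genes. By upper quartile factors 9 were lower and 2 higher, beside 19% and 11.1% of all genes. These scalings shift the median log2 fold change of the tested genes by -0.31 and -0.21. All 8 called members stayed lower under both scalings, beside 22% and 19% of all genes.

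**Figure D4:**
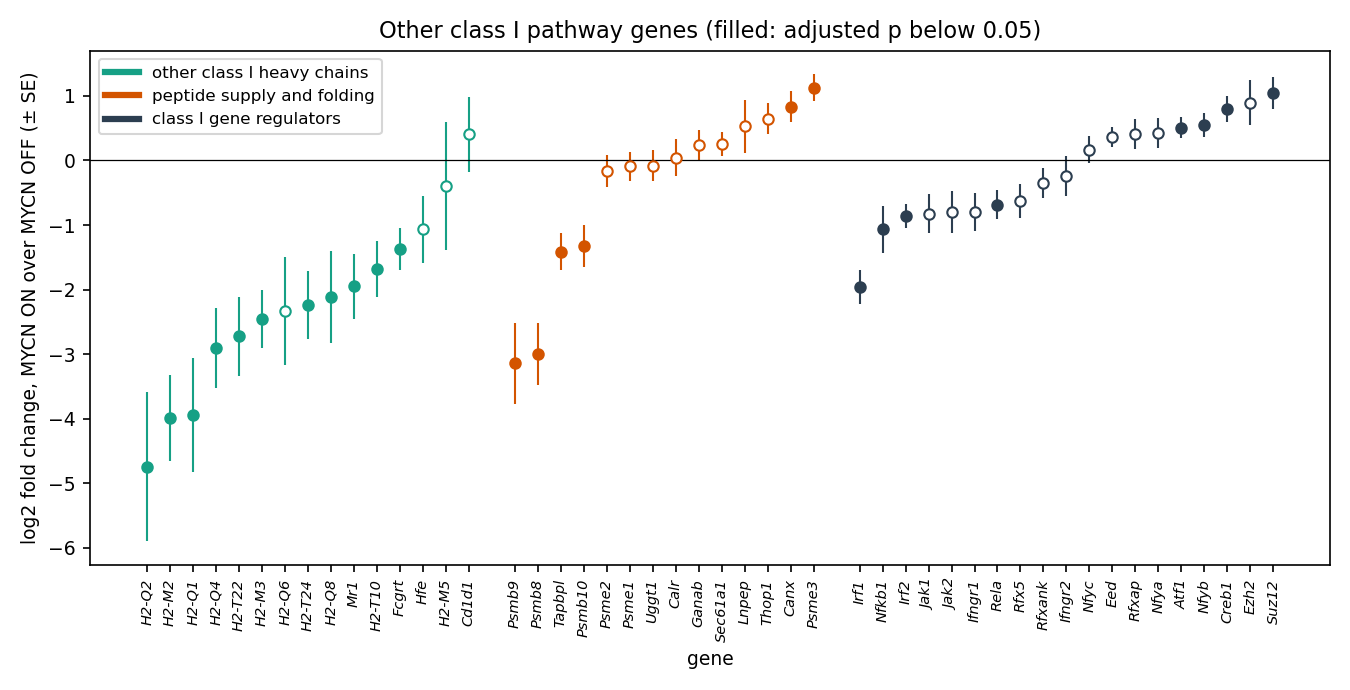
Log2 fold change (MYCN ON over MYCN OFF, ± SE) of tested genes of the 3 other lists, with filled points for an adjusted p below 0.05. Heavy chain genes lie mostly below 0, Psmb8, Psmb9, Psmb10 and Tapbpl are the called peptide supply genes below 0, and Irf1 is the lowest regulator drawn.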

How the data were processed

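Poly(A) RNA from 11 tumors was made into NEBNext Ultra libraries, per the labels' protocols. The deposited values are raw read counts, 1 whole number per symbol and tumor, and the submitters' processing notes name bcl2fastq 1.8.4, TopHat2 2.0.8b, HTSeq 0.6.1 and mm9. No source used here gives the annotation or the strand setting, so reads of overlapping or antisense genes cannot be told apart. HTSeq's 5 summary rows stayed out of all totals. Reads without a feature made up 14.8% to 21.5% of a library.

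Counts were analysed in R 4.3.3. Genes passed filterByExpr (minimum count 10, total 15), libraries were scaled by TMM, and edgeR 4.0.16 (robust quasi-likelihood test, no covariate, Benjamini-Hochberg over 15237 genes) compared the groups. Standard errors were derived from the log2 fold change and its F statistic. Marker scores are means of log2 CPM (prior count 2) over tested markers. They were compared over all 330 splits of the tumors, with a smallest possible p of 0.00303 when no tumor is left out. Group errors are SD over 7 and 4 tumors. Exon lengths came from GENCODE M21.

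Alternatives used other scalings, DESeq2 1.42.0, limma voom (3.58.1), other filters, a replicate block, marker score covariates, subsets by Sftpc (100 CPM), a threshold of 0.01, each tumor left out, and, chosen after seeing the data, both tumors richest in lung markers left out. The members, lists and tests were chosen with earlier results of these data known. Besides the members, text names up to 5 called genes with the smallest p per list, with Rfx5, Irf1, Psmb8, Psmb9, Calr and Canx, and the 5 genes most correlated with Nlrc5 and with B2m. One called regulator is counted but not reported by name here. Promoter letters were searched on both strands.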

Additional observations from a re-analysis of the deposited data

Results flagged for a closer look

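Of 20 sets of CPM values (10 members in each group), 4 held a tumor far from the rest by Dixon's criterion. Its rate of about 1 in 20 by chance holds for normally distributed values. The CPM were not put on a log scale here and the sets share tumors, so 4 of 20 is not a measure of an excess. H2-T23 was at 205 CPM in MYCN OFF tumor 1, with the next tumor at 79.7 CPM. The other 3 concerned MYCN ON tumor 5, where B2m was at 333 CPM (next highest 183), H2-K1 at 350 CPM (next highest 157) and Nlrc5 at 8.12 CPM (next highest 4.08). MYCN OFF tumor 1 and MYCN ON tumor 5 had the highest lung marker sums of their groups, 35276 and 3679 CPM, and the highest leukocyte marker sums, 1010 and 259 CPM. The part of that tissue in these values was not tested.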

How the results depend on the processing

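The members gave 270 comparisons with an alternative, and 207 kept direction and side of the threshold. Of 27 each, H2-K1 kept 8, H2-D1 9, B2m 22, Tap1 23, Nlrc5 24, and H2-T23, Tap2 and Tapbp 25. Erap1 (24) and Pdia3 (22) are in the total too, though not called in the main fit. The fits share tumors, so the comparisons are not independent. Called members lower in MYCN ON numbered 5 with the lung score, 4 with the leukocyte score, 3 with both, 0 in either Sftpc subset, and 6 to 8 with 1 tumor left out (6.59% to 15.7% of all genes). Of all genes, 3.34%, 3.25%, 3.73% and 5.77% were lower with the lung score, the leukocyte score, both and the endothelial score. Those higher made up 7.36%, 5.74%, 6.41% and 9.86% in the same fits. Without MYCN OFF tumor 1 and MYCN ON tumor 5 there were 6 (7.36% of all genes). The labels do not say whether equal replicate numbers mark paired tumors. Same-number correlations ran from -0.16 to 0.46, and 2 of 4 MYCN OFF tumors matched best with their own number. The tumors also differ in tissue content, so these correlations cannot settle pairing. The replicate block left 6 members lower (7.56% of all genes), without H2-K1 and H2-D1. With that block 2 regulators were lower and 2 higher (12.3% of all genes were higher). Replicate numbers 5 to 7 occur only in MYCN ON, so those tumors add nothing to the group difference in that fit. Other heavy chains lower, 11 in all tumors, numbered 5 with the lung score, 0 with the leukocyte score, 4 with both, 7 with the endothelial score, 0 in the Sftpc subsets, 5 at an adjusted p of 0.01 and 8 to 12 with 1 tumor left out. Peptide supply genes lower numbered 2, 1 and 2 with the lung score, the leukocyte score and both, 0 in the subsets and 3 to 4 with 1 tumor left out. Those higher numbered 1 with upper quartile factors, library totals, the lung score, the endothelial score or a threshold of 0.01, 0 with the leukocyte score, both scores or a subset, and 1 to 3 with 1 tumor left out. Regulators lower numbered 9 with upper quartile factors and DESeq2, 10 with library totals, 2 with the lung score, 3 with the leukocyte score, both scores, a threshold of 0.01 or both lung-richest tumors left out, 0 in the subsets and 3 to 6 with 1 tumor left out. Regulators higher numbered 2 with RLE or upper quartile factors, no filter or both lung-richest tumors left out. They numbered 1 with library totals, both scores or the endothelial score. They numbered 0 with the lung score, the leukocyte score, a threshold of 0.01 or a subset, and 2 to 6 with 1 tumor left out. Of all genes, 14.1%, 11.1%, 8.64% and 10.6% were higher with RLE factors, upper quartile factors, library totals and no filter. With both lung-richest tumors left out 12.5% were higher, and 10.9% to 19.1% with 1 tumor left out. Those lower made up 19%, 22% and 19.2% with upper quartile factors, library totals and DESeq2. Shares at a threshold of 0.01 are not given. The subsets hold fewer tumors. In the lung-containing subset 7 heavy chains, 4 peptide supply genes and 6 regulators were lower at an unadjusted p below 0.05 (edgeR), beside 11.1% of all genes. At the same threshold 0 heavy chains, 3 peptide supply genes and 5 regulators were higher. Of all 15690 genes tested in that subset, 3898 passed in either direction. The cause of the other changes was not tested. With 1 tumor left out the lung score difference ran from -5.91 to -3.14 and the leukocyte score difference from -2.21 to -1.19.

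Reversed values, none of them called, were as follows. H2-K1 was at 0.38 with the leukocyte score and 0.17 with both scores. H2-D1 was at 0.31, 0.23 and, in the lung-poor subset, 0.12. Erap1 was at 0.052 with the lung score, 0.18 with the leukocyte score and 0.17 with both. Pdia3 was at -0.084 with upper quartile factors, -0.18 with library totals, -0.15 in the lung-containing subset, and -0.024 and -0.02 without MYCN ON tumor 4 and MYCN OFF tumor 2. Calr was at -0.044 with RLE factors and DESeq2, -0.18 with upper quartile factors, -0.28 with library totals, -0.031 without a filter, -0.31 in the lung-containing subset, and from -0.19 (without MYCN ON tumor 1) to 0.27 (without MYCN OFF tumor 1) with 1 tumor left out. The biological coefficient of variation, a single value for the data set, was 53.7%. For genes with many reads, differences between tumors therefore limit the precision more than counting error does. Genes with few reads, such as H2-Q1, are not covered by this.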
